A study of Drosophila melanogaster with 4 samples.

Results

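The yolk receptor gene yl, the RNA-localisation gene exu, the translational repressor gene pum and the meiotic checkpoint gene pch2 of Drosophila melanogaster were followed on 4 two-colour arrays of adult females exposed to black pepper extract. These 4 genes, of 2377 that the array's annotation names singly, were chosen by their role in the ovary or in meiosis with their ratios on these arrays already known, pch2 being among the genes below 0 on every array. Their ratios are therefore given as a description, with no test. The annotation assigns 10 spots to them, 4 to exu and 2 to each of the others.

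Both groups were Oregon-R females, 10 to 20 days after adult emergence. The treated group was sprayed with 2 mL of 99% ethanol that held 0.9 mg/mL of seed extract of Piper nigrum, in a Potter's tower, a device that sprays insects evenly, and the control group received 2 mL of 99% ethanol alone, so ethanol was common to both. RNA was taken 4 h later from pools of about 240 insects. Replicates 1 and 3 each gave a treated and a control pool, hybridised once with the extract RNA in Cy3 and once in Cy5, so the 2 arrays of a replicate count as 1 value and n = 2. A pool holds insects sprayed together, and an SD over pools given below is the spread between 2 such pools. An SE given below is the moderated SE of the limma fit. It draws on the variance of all features, so it is not that spread alone.

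Each value is a log2 ratio, extract over ethanol, after every array had been centred at its median. The log base was taken as 2, and the direction (channel 2 over channel 1) was assumed, because neither is given in the sources used here. Ratios of ethanol over extract would turn every sign. If the ratios were instead taken by dye, the treatment would lie in the reading with the Cy5 arrays turned, in which the 2 arrays with extract in Cy5 have their sign reversed. Between the 2 arrays of a dye swap, Pearson's r over all 16896 spots was 0.0211 (replicate 1) and 0.0632 (replicate 3). Over the whole table, 6 of 13607 features, genes or single spots, had an adjusted p under 0.05 in limma (0.0441%). This share is given as background, with no test read for the 4 genes.

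In the fly ovary, yolk proteins made by fat body and follicle cells are taken up by the growing oocyte through receptor-mediated endocytosis. The oocyte also stores maternal messenger RNAs, whose position and translation are set by RNA-binding proteins before fertilisation and which pattern the embryo. It completes recombination in early prophase under the watch of checkpoints that delay meiosis when chromosomes are not properly processed. The 4 genes cover these steps: yl uptake, exu localisation, pum translational control and pch2 the checkpoint.

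The order of the mean ratios ran from pch2 at -0.40 ± 0.20 (SD over pools, n = 2) through pum at -0.28 ± 0.11 and yl at -0.01 ± 0.22 to exu at 0.22 ± 0.23. On a linear scale these means correspond to 0.758, 0.823, 0.991 and 1.17 times the ethanol level. With the Cy5 arrays turned the order was pch2 at -0.15, yl at 0.00012, pum at 0.09 and exu at 0.29, so yl and pum changed places. As deposited, the 2 pools of pch2 and those of pum overlapped in range, and so did those of yl and exu, so neither pair of neighbours differed beyond its spread. The pools of pum, at -0.36 and -0.20, lay just below those of yl, at -0.17 and 0.14, but their arrays overlapped. The median SD between pools over all named genes was 0.125, smaller than for yl, exu and pch2 and larger than for pum. RNA came from whole pools of females, where fewer cells of a type and less RNA per cell cannot be told apart.

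**Figure D1:**
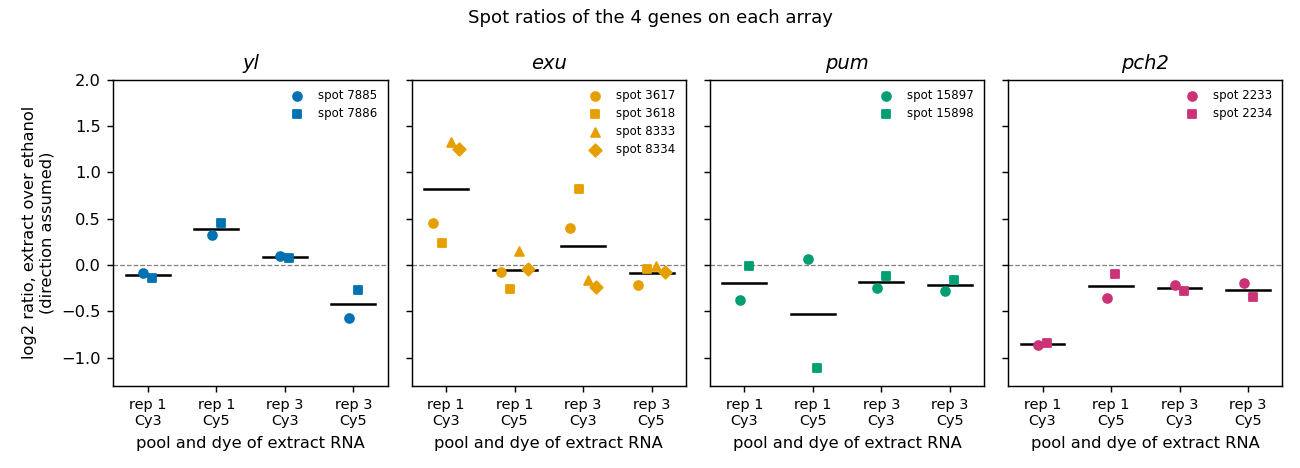
Log2 ratios (vertical axis) of every spot of yl, exu, pum and pch2 on the 4 arrays, which are named by replicate pool and by the dye of the extract RNA; symbols are spots and black bars the mean per array. All 8 points of pch2 lie below 0, the 2 pairs of exu separate on both Cy3 arrays, and 1 spot of pum lies at -1.11 on the Cy5 array of replicate 1.

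The gene yl (yolkless) encodes the yolk protein receptor of the oocyte, a member of the low-density lipoprotein receptor family. Its ratio was -0.11 on the Cy3 array and 0.39 on the Cy5 array of replicate 1. In replicate 3 it was 0.08 with extract in Cy3 and -0.42 with extract in Cy5. The 2 Cy5 arrays gave the highest and the lowest value, so the same dye layout gave opposite signs in the 2 pools. The arrays spread over 0.81, and the SD over the 4 arrays exceeded that of 79.1% of named genes. The mean near 0 therefore joins values of opposite sign and does not show that the transcript kept its level.

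The 2 spots of yl followed each other closely within each array. Spot 7885 read -0.08, 0.32, 0.10 and -0.57, and spot 7886 read -0.14, 0.46, 0.07 and -0.27, in the order Cy3 and Cy5 of replicate 1 and then Cy3 and Cy5 of replicate 3. Their mean absolute gap was 0.127, and 8.15% of 2833 adjacent pairs of 1 gene had a smaller one. The swing of yl between arrays was thus shared by both spots on all 4 arrays. Without the Cy3 array of replicate 1 the mean was 0.11, without the Cy5 array of replicate 3 it was also 0.11, and without replicate 3 it was 0.14. It was -0.14 when either of the other 2 arrays was left out, and with the Cy5 arrays turned 0.00012.

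The gene exu (exuperantia) encodes an RNA-associated protein needed to bring bicoid messenger RNA to the anterior of the oocyte. It was read by 2 separate pairs of spots. Averaged over the 4 spots, exu stood at 0.82 with extract in Cy3 and -0.05 with extract in Cy5 in replicate 1, and at 0.20 and -0.09 in replicate 3. Both Cy3 arrays were above 0 and both Cy5 arrays slightly below it. The Cy3 mean was 0.51 and the Cy5 mean -0.07, a setting added after the values were seen. The size of this gap between dyes, 0.58, exceeded that of 94.3% of named genes, for which the median was 0.189. Its part in the mean ratio of exu was not tested.

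The 2 pairs of exu were high on different arrays. Spots 3617 and 3618 averaged 0.35 and -0.16 on the Cy3 and Cy5 arrays of replicate 1, and 0.61 and -0.13 on those of replicate 3. Spots 8333 and 8334 averaged 1.29 and 0.06 in replicate 1, and -0.20 and -0.04 in replicate 3. The first pair was therefore above 0 on both Cy3 arrays, whereas the second stood high on a single array, the Cy3 array of replicate 1. Within that array spots 8333 and 8334 agreed, at 1.33 and 1.26.

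Between the pairs the mean absolute gap was 0.516, more than in 88.4% of the 216 genes with 2 such pairs, where the median was 0.289. Within the pairs it was 0.250 for spots 3617 and 3618 and 0.103 for spots 8333 and 8334. Spots of a pair therefore agreed better with each other than the pairs did, and which transcripts each pair detects is not given in the sources used here. Over the pools, the first pair stood at 0.09 in replicate 1 and 0.24 in replicate 3, and the second at 0.67 and -0.12. The pair means were 0.17 and 0.28, again a setting added after the values were seen. Without the Cy3 array of replicate 1 the mean of all 4 spots was 0.0029, and without the Cy5 array of that replicate it was 0.44. Leaving out the Cy3 array of replicate 3 gave 0.15.

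**Figure D2:**
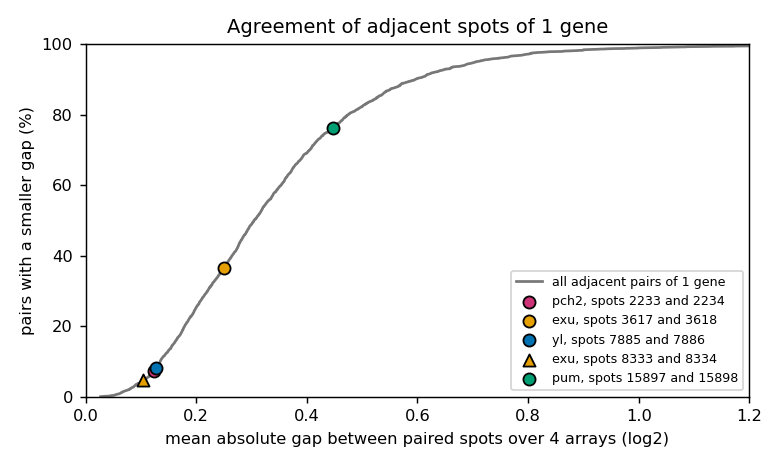
Cumulative share of adjacent spot pairs of 1 gene (vertical axis, percent) by the mean absolute gap between the paired spots over 4 arrays (horizontal axis, log2), with the 5 pairs of the 4 genes marked. The pair of pum, at 0.447, lies above 76.1% of pairs, and the pairs of pch2 (0.124) and yl (0.127) and the second pair of exu (0.103) lie low; 16 pairs beyond 1.2 are not drawn.

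The gene pum (pumilio) encodes an RNA-binding protein that represses translation of its targets, among them hunchback in the embryo, and is required for germline stem cell maintenance. It also acts in neurons, so its RNA in whole females need not come from the ovary. In replicate 1 its ratio was -0.20 with extract in Cy3 and -0.52 with extract in Cy5. In replicate 3 the values were -0.19 and -0.22. All 4 arrays lay below 0, and 3 of them lay close together. The mean of -0.28 lay above that of 92 named genes and below that of 2284.

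A single spot set the lowest array of pum. On the Cy5 array of replicate 1, spot 15898 read -1.11 and spot 15897 read 0.06. That gap of 1.18 exceeded those of 96.5% of adjacent pairs on the same array. On the other arrays spot 15897 read -0.38, -0.25 and -0.28 and spot 15898 read -0.01, -0.12 and -0.16. Across arrays 7 of the 8 spot values were below 0, and the exception was spot 15897 on the array just named. Alone, spot 15897 averaged -0.21 and spot 15898 -0.35. Without the Cy5 array of replicate 1 the mean of pum was -0.20, and with the Cy5 arrays turned it was 0.09.

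The gene pch2 encodes an AAA+ ATPase of the meiotic checkpoint. In flies it delays meiotic progression when crossover formation or chromosome axes are disturbed, and in yeast, worms and mammals its relatives remodel proteins with a HORMA domain. In replicate 1 its ratio was -0.85 with extract in Cy3 and -0.23 with extract in Cy5. In replicate 3 the values were -0.25 and -0.27. All 4 arrays lay below 0, and the Cy3 array of replicate 1 lay well below the other 3. The mean lay above that of 21 named genes and below that of 2355.

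Both spots of pch2 read the same on the extreme array, at -0.86 and -0.84. On the other arrays spot 2233 read -0.36, -0.22 and -0.19, and spot 2234 read -0.10, -0.28 and -0.35. The mean absolute gap between the spots was 0.124, and 7.24% of adjacent pairs had a smaller one. Alone the spots averaged -0.41 and -0.39. Unlike in pum, the extreme array was thus shared by both spots. The spots carry adjacent numbers, and Sgt, whose spots are numbered next, stood at -0.94 on that array. Whether place on the array plays a part was not tested. Without the Cy3 array of replicate 1 the mean of pch2 was -0.24, and with the Cy5 arrays turned it was -0.15.

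In the deposited direction, signs repeated over the arrays in pch2 and pum and in neither exu nor yl. With the Cy5 arrays turned, exu alone of the 4 kept 1 sign, at 0.82, 0.05, 0.20 and 0.09, and pch2, pum and yl each had 2 arrays on either side of 0. Both pch2 and pum were below 0 on all 4 arrays, as were 190 of the 2377 named genes (7.99%), whereas 210 (8.83%) were above 0 on all 4. All 8 spot values of pch2 were below 0, as in 45 of 2089 named genes with 2 spots (2.15%). Since pch2 was chosen with this sign pattern known, nothing is read from these shares. Of the 16 spot values of exu 9 were below 0 and 7 above, and of the 8 of yl 4 were on each side.

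**Figure D3:**
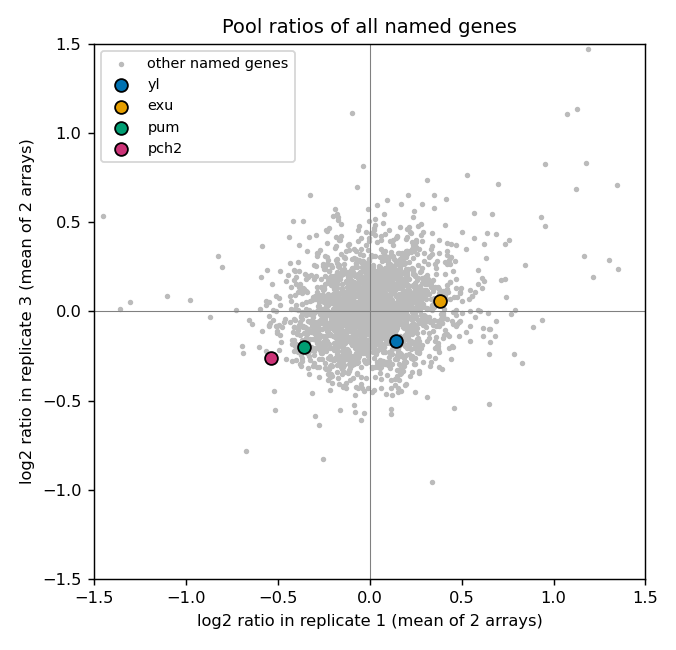
Log2 ratio of each named gene in replicate 1 (horizontal axis) against replicate 3 (vertical axis), each the mean of 2 arrays, with the 4 genes in colour. The genes pch2 and pum lie below 0 in both pools, exu above 0 in both and yl on opposite sides; 6 genes beyond 1.5 on either axis are not drawn.

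The genes whose 4 array values lay nearest to each of the 4 were found by Euclidean distance among all named genes. Nearest to pch2 were Sgt at a distance of 0.235, Jabba at 0.237 and Mip at 0.244, against a median of 1.07 over all named genes. These encode a co-chaperone, a lipid droplet protein that holds histones and a myoinhibitory peptide precursor. All 3 had their lowest value on the Cy3 array of replicate 1, at -0.94, -0.63 and -0.73. The first spot of Sgt is 2235, numbered directly after spots 2233 and 2234 of pch2. Whether a shared place on the array plays a part in their likeness was not tested. Nearest to pum were CG8939 at 0.0782, CG8004 at 0.108 and CG7182 at 0.126, against a median of 0.791. Each of these 3 had its lowest value on the Cy5 array of replicate 1, from -0.48 to -0.45. Since the neighbours of pch2 and pum were picked by these same values, a shared lowest array follows from the pick.

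Nearest to yl were Tps1, an enzyme of trehalose synthesis, at a distance of 0.127, CG7139 at 0.128 and CG8204 at 0.130, against a median of 0.756. Nearest to exu were CG17754 at 0.170, BtbVII at 0.227 and CG7886 at 0.233, against 0.975. The neighbours of exu stood at 0.68, 0.63 and 0.74 on the Cy3 array of replicate 1 and within 0.23 of 0 on the others. Each likeness rests on 4 arrays of 2 pools, and the high array shared with exu follows from the pick by these values. Among the 4 genes, pum and pch2 lay nearest to each other, at 0.723, and exu and pch2 farthest apart, at 1.75.

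In the RefSeq gene table of Release 6, the nearest protein-coding genes were CG13403 and CG11590 for yl, Ada and D1 for pum, Fem-1 and Gr57a for exu and Or85d and mRpS18A for pch2. The gene CG11997 overlapped pum, and galla-1 overlapped exu. None of these 10 was measured under its own name, so no ratio of a neighbour can be set beside the 4 genes. Whether a spot of pum or exu also binds RNA of an overlapping gene was not tested. The table lists 8 transcripts for pum, 4 for exu and 2 each for yl and pch2.

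Other genes of the same steps were taken from 9 lists, of which 8 held a measured gene. In all, 49 genes other than the 4 were measured, and 0 passed the limma test over all features in either direction. Over all features the share was 6 of 13607 (0.0441%). At that share 0 is the likely count in a list of this size, so it is not read as a lack of change, here or in the single lists below. At an unadjusted p under 0.05 there was 1 of the 49 (2.04%), the lipoprotein gene apolpp, against 91 of all named genes (3.83%). Below 0 on all 4 arrays were 6 of the 49 (12.2%) and above 0 on all 4 were 2 (4.08%), to be read against the 7.99% and 8.83% above. The median ratio of all named genes was 0.0058, and list medians are given beside this value.

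Of 26 other genes for yolk proteins and yolk uptake, 5 were measured, 0 passed in either direction, and their median was -0.02. The Rab5 effector gene Rbsn-5, of early endosomes, stood at -0.25 ± 0.15 (moderated SE, n = 2, limma, adjusted p = 0.770). Over the arrays Rbsn-5 read -0.01, -0.69, -0.17 and -0.12. Sec5, a subunit of the exocyst that delivers receptor to the oocyte surface, stood at -0.18, with -0.60 and 0.25 on the arrays of replicate 1 and -0.05 and -0.32 on those of replicate 3. Crag, Rip11 and mtd lay at 0.03, 0.03 and -0.02. Only Rbsn-5 of these 5 kept 1 sign on all 4 arrays, and leaving out the Cy5 or the Cy3 array of replicate 1 moved it to -0.08 or -0.42. Sec5 stood at 0.03 without the Cy3 array of replicate 1. The yolk protein genes Yp1, Yp2 and Yp3 were not measured under their names, so yl cannot be set beside its ligands.

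Of 44 other genes for maternal RNA localisation and germ plasm, 9 were measured, 0 passed in either direction, and the median was -0.03. The Y-box gene yps, whose protein occurs in a complex with Exuperantia, stood at -0.12 ± 0.15 and read -0.35, 0.22, -0.29 and -0.07 (limma, adjusted p = 0.887). On both Cy3 arrays yps was below 0 and the mean of exu above it, though spots 8333 and 8334 of exu averaged -0.20 in replicate 3. On the Cy5 arrays exu read -0.05 and -0.09, so in replicate 3 both genes were below 0. The RNA-binding protein genes Hrb27C and Imp stood at 0.11 and 0.11, and the piRNA pathway genes zuc and shu at -0.08 and -0.08. Hrb27C read -0.05 in replicate 1 and 0.28 in replicate 3, and Imp was at -0.07 without the Cy5 array of replicate 1. Leaving out the Cy3 array of replicate 1 put zuc at 0.06 and shu at 0.03. The largest ratio among the 9, in absolute terms, was 0.12, smaller than that of exu, which was chosen with its ratio known. Without the Cy3 array of replicate 1 exu stood at 0.0029. The ratio of yps was 0.02 without the Cy3 array of replicate 1. The gene bcd, whose RNA Exuperantia localises, was not measured under its name.

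Of 27 other genes for Pumilio partners, targets and translational repression, 5 were measured, 0 passed in either direction, and the median was 0.02. The gene smg, for the repressor Smaug of nanos RNA, stood at -0.25 ± 0.16 and read -0.66, -0.16, -0.15 and -0.02 (limma, adjusted p = 0.775). The deadenylase gene twin, for the fly CCR4, stood at 0.21 ± 0.15 and read 0.15, 0.16, 0.29 and 0.24 (limma, adjusted p = 0.789). These 2 genes kept 1 sign on all 4 arrays, in opposite directions. Pop2, which encodes the other catalytic deadenylase subunit, stood at -0.12, the sex-determination gene Sxl at 0.17 and the CPEB-family gene orb2 at 0.02. Without the Cy3 array of replicate 1, smg stood at -0.12 and Sxl at 0.10. The pools of Sxl lay on opposite sides of 0, at -0.16 in replicate 1 and 0.49 in replicate 3.

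Of 72 other genes for meiotic pairing, recombination and segregation, 14 were measured, 0 passed in either direction, and the median was 0.02, with 9 above 0 and 5 below. No gene of the 14 kept 1 sign on all 4 arrays. The DNA-damage clamp gene Rad1 had the highest mean, 0.23 ± 0.15 (limma, adjusted p = 0.777). It read -0.45 and -0.22 on the Cy3 arrays and 0.82 and 0.75 on the Cy5 arrays of replicates 1 and 3. The dyes did not overlap, and with the Cy5 arrays turned its ratio was -0.56. Without 1 array it ranged from -0.09 to 0.54.

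The double-strand break repair gene rad50 stood at -0.14, the cohesin gene SMC3 at 0.14, the egg-activation kinase gene png at 0.09 and endos, for an endosulfine that acts in meiotic maturation, at -0.09. For rad50 the value was -0.01 without the Cy3 array of replicate 1, and for SMC3 it was 0.04 without the Cy5 array. The 3 measured synaptonemal complex genes, named here after their values were seen, were c(3)G at 0.05, c(2)M at 0.03 and cona at -0.0036. The lowest mean among the 14 was -0.14, so pch2 lay below all of them, which its choice with this ratio known partly fixes. With the Cy5 arrays turned pch2, at -0.15, lay above 3 of the 14, Rad1 at -0.56, endos at -0.21 and rad50 at -0.17.

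**Figure D4:**
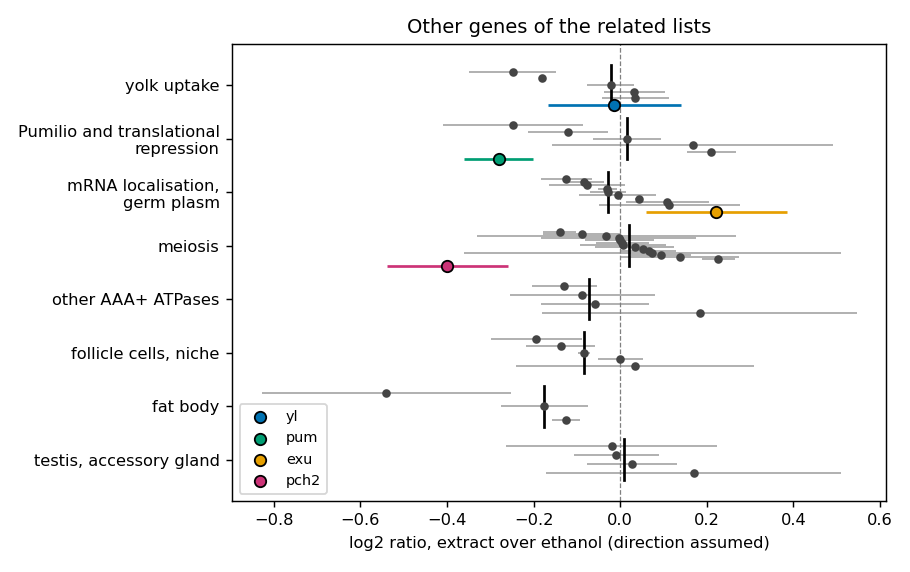
Mean log2 ratio (horizontal axis) of the measured genes in 8 related lists (rows), as dots with lines joining the 2 pools and black bars for the list median; coloured points are yl, pum, exu and pch2 beside their own list. The 49 listed genes lie between -0.54 and 0.23, and pum, exu and pch2, but not yl, lie outside the dots of their lists; with the Cy5 arrays turned (not drawn) pch2 lies within the range of its list too.

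Among 26 AAA+ ATPase genes of other functions 4 were measured and 0 passed in either direction, with a median of -0.07. The ESCRT gene Vps4 stood at -0.13, the microtubule-severing gene spas at -0.09, and the proteasome genes Rpt5 and Rpt4R at -0.06 and 0.18. Rpt4R read 0.83, -1.19, 0.16 and 0.94 over the arrays, so its mean joins values of both signs. An adjacent pair of its spots had a mean absolute gap of 0.814, against a median of 0.305 over all such pairs. With the Cy5 arrays turned the median of the 4 was 0.23.

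Tissue markers could be followed only in part. Ratios carry no level, so whether each marker was expressed in these females could not be read from them. Of 8 germline markers, yl and exu were the 2 measured, and 0 of 6 follicle cell markers and 1 of 6 fat body markers, apolpp, were measured. No eggshell gene of 25 was measured under its name. Of 30 genes of follicle cells and the stem cell niche 5 were measured and 0 passed in either direction, with a median of -0.08. The niche ligand gene dpp stood at -0.19 and its receptor gene tkv at -0.14, and br, bun and eya at -0.08, 0.00042 and 0.03. The receptor gene tkv was below 0 on all 4 arrays, and dpp read -0.05 without the Cy3 array of replicate 1.

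The fat body supplies much of the yolk protein, and 3 of 17 of its genes were measured, with 0 past the test in either direction and a median of -0.18. The lipophorin precursor gene apolpp stood at -0.54 ± 0.18 and read -0.03, -0.48, -1.02 and -0.64 (limma, adjusted p = 0.552). Fbp2, a fat body gene of the alcohol dehydrogenase family, stood at -0.18 and Mtp, a lipid transfer protein gene for lipophorin assembly, at -0.13. All 3 were below 0 on all 4 arrays, and their median with the Cy5 arrays turned was 0.02. Fbp2 stood at -0.07 without the Cy3 array of replicate 3.

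Testis and accessory gland genes serve as a comparison, since females lack these organs. Of 46 such genes 4 were measured, 0 passed in either direction, and the median was 0.0087. The sperm gene dj stood at -0.02, the seminal fluid genes Acp36DE and Acp53C14a at -0.01 and 0.03, and the testis tubulin gene betaTub85D at 0.17. On single arrays the extremes of these 4 were -0.68 for dj and 0.72 for betaTub85D, both on the Cy5 array of replicate 3. Acp36DE stayed between -0.15 and 0.27 and Acp53C14a between -0.08 and 0.19. The extremes of the 4 ovary and meiosis genes on single arrays, -0.85 for pch2 and 0.82 for exu, were only slightly wider. Extremes of so few genes rest on single arrays, so nothing further is read from this.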

How the data were processed

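Total RNA (80 µg per channel, labelled directly with Cy3 or Cy5, per the labels' protocols) was compared on 4 arrays. The deposited values are 1 log2 ratio per spot, made by the authors. How the authors scanned, corrected, normalized and filtered the spots is not given in the sources used here. Signal over background was not used, so spots near background could not be told from the rest. Precision is also limited by the number of arrays.

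Arrays were centred at their medians (shifts of at most 0.0022). Of 16896 spots, 5666 had 1 gene symbol, 152 several and 11078 none. All 5666 matched RefSeq's table by gene number and 0 symbols changed. Spots were averaged per gene, other spots stayed single, and the dye swaps were averaged per pool. The 13607 features were fitted in limma 3.58.1 (R 4.3.3; lmFit, eBayes) and their ratios tested two-sided against 0 (Benjamini-Hochberg, threshold 0.05), with 1 residual and 8.19 prior degrees of freedom. The median SE was 0.153. The fit was tested on simulated data with planted shifts larger than any ratio of the 4 genes. That run does not show its power at the size of those ratios.

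The 4 genes and the lists were chosen with earlier results of these data known. The text names the 4 genes, the 3 named genes nearest to each over the arrays, and up to 5 measured genes per list by absolute mean. Alternatives turned the Cy5 arrays, left out centring, arrays or pools, scaled the arrays, took spot medians or single spots, and used a replicate block.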

Additional observations from a re-analysis of the deposited data

Results flagged for a closer look

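Of 48 measures (the 4 genes, the 36 listed genes that the naming rule took and 8 list medians), 2 had 1 array that lay far from the rest. By chance about 1 in 20, or 2.4, would if the 4 arrays were independent. They come from 2 pools, so 2.4 is nominal and nothing is read from the count. On the Cy5 array of replicate 1 pum stood at -0.524, with the others from -0.218 to -0.186. Its spot 15898 read -1.11 there and spot 15897 read 0.06. On the Cy3 array of replicate 1 pch2 stood at -0.850, with the others from -0.270 to -0.228. Both of its spots were low there, at -0.86 and -0.84.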

How the results depend on the processing

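With the Cy5 (reverse-label) arrays turned, 0 features passed the limma test in place of 6 (647 at an unadjusted p under 0.05), pum stood at 0.090 and pch2 at -0.15. Arrays scaled to equal spread gave 42 calls (36 higher, 6 lower, against 4 and 2), the 4 arrays with the replicate block 12, named genes alone 10 and every spot as its own feature 19. Without 1 array the count ranged from 0 (without the Cy3 array of replicate 3) to 11 (without the Cy5 array of replicate 1). The fits of named genes and of single spots tested 2377 and 16896 features in place of 13607, and the cause of these moves was not tested. The extract in Cy3 alone gave exu 0.51 and in Cy5 alone -0.070. None of the 49 listed genes passed under any alternative fitted over all features. Whether any passed in the fits of named genes alone or of single spots was not counted. Leaving out a pool leaves no residual degrees of freedom, so only values are given, and the ratios of the 4 genes then ranged from -0.54 to 0.38. Without 1 array, 30 of the 49 listed genes changed sign, and 43 changed sign or moved by over 1.5 times. Of 88 list medians under the alternatives, 65 moved by less than their spread between pools and 23 by more. With 2 arrays in each pool, the replicate block cannot change a mean ratio. Its unchanged values for the 4 genes, and for the list medians counted here, are therefore no check.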
